A study of Mus musculus with 6 samples.

Results

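Arterial endothelial cells line the arteries and arterioles of the lung. Here they were barcodes chosen by a count rule in single-cell RNA sequencing of aged mouse lung, and 600 of 94392 barcodes met it. The rule set a minimum of 500 genes and 1000 UMIs (counted RNA molecules) per barcode and a maximum of 15% mitochondrial UMIs. It asked for at least 1 UMI of the endothelial cadherin gene Cdh5 and a sum of at least 2 UMIs over Gja5, Bmx and Dkk2. It allowed no UMI of Kit, Slc6a2, Ptprc, Pdgfra or Epcam, which mark general capillary, venous, immune, fibroblast and epithelial cells, and at most 1 UMI of Ednrb, which marks aerocytes. The 600 cells were 2.235% of the 26846 endothelial barcodes that passed the same quality limits.

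The study compared lungs of 21-month-old male C57BL/6 mice in which p16-expressing cells could or could not be removed with diphtheria toxin. Lungs labelled p16-DTR carried p16-CreERT2 and R26-LSL-DTR, so that the tamoxifen-activated Cre made from the p16 (Cdkn2a) gene switches on a diphtheria toxin receptor at the Rosa26 locus, and lungs labelled control carried p16-CreERT2 without the receptor allele. All mice of both groups were given 5 days of tamoxifen, waited 2 weeks, were given 5 days of diphtheria toxin and recovered for 2 weeks. Each group had 3 libraries, and each library mixed 20000 sorted CD45- cells with 9000 CD45+ cells of 1 lung digested with liberase. The labels number the lungs of a group and say no more of their origin, so p-values measure the spread between these libraries. Groups without tamoxifen or without toxin are not among the samples used here, so the effects of these agents that both groups share cannot be seen. The mixing ratio set the balance of immune and other cells, so cell numbers are given mainly within the endothelium.

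Arteries carry blood under higher pressure and flow than the vessels downstream of them. Their endothelium is specified during development by VEGF and Notch signalling, with transcription factors of the Sox17 and Hey families acting with this pathway. It contributes elastic fibres to the vessel wall, couples to smooth muscle through gap junctions made in part of connexins 37 and 40 (Gja4 and Gja5), and controls vessel tone through mediators such as endothelin and nitric oxide.

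The gate was checked against the given markers it did not use. Sox17 stood at 79.1, 109 and 115 CPM (counts scaled to a library sum of 1000000, here of the UMIs summed over the gated cells of a library) in the p16-DTR libraries and at 126, 88.7 and 109.5 CPM in the control libraries. Hey1 stood at 179, 139 and 111 CPM in the p16-DTR libraries and 125, 164 and 100.2 CPM in the control libraries. Both genes, which encode arterial transcription factors, were present in every library, and the groups overlapped for both. Neither separates arterial from general capillary cells, where Sox17 was higher and the range of Hey1 overlapped, as given with the levels by type.

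A second population was inside the gate. Of the 600 cells, 86 (14.33%) held at least 3 UMIs summed over Prox1, Mmrn1 and Reln, which mark lymphatic endothelium. Bmx, a kinase of the Tec family, brought them in: 85 of the 86 had a Bmx UMI and 3 had a Gja5 UMI. The lymphatic-marked cells numbered 16, 11 and 17 in the p16-DTR libraries (21.6%, 10.4% and 23.3% of the gated cells) and 16, 11 and 15 in the control libraries (13.4%, 11.96% and 11.03%). Their share averaged 18.4% ± 7.02 (SD, n = 3) against 12.1% ± 1.22 (SD, n = 3), and the groups overlapped (exact two-sided permutation test over libraries, p = 0.4; the smallest p that 3 against 3 can give is 0.1). A further 33 cells (5.5%) lacked Gja5 and carried Nr2f2, a transcription factor of veins and lymphatics. Per library there were 2, 3 and 5 of them (p16-DTR) and 6, 7 and 10 (control). By these marks the label of arterial endothelium does not hold for all gated cells. The marks flag lymphatic and venous cells and cannot tell arterial from capillary cells. The 481 gated cells without either set (80.17%) are called core arterial cells below, a class set after the data were seen, and core values are given beside those of the gate for the called genes, the shares and most lists. Capillary markers other than Kit and Ednrb were not used to set cells apart. The 10 listed general capillary markers summed to 3319 to 4523 CPM per library in core cells and 12603 to 14272.5 CPM in general capillary cells.

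**Figure D1:**
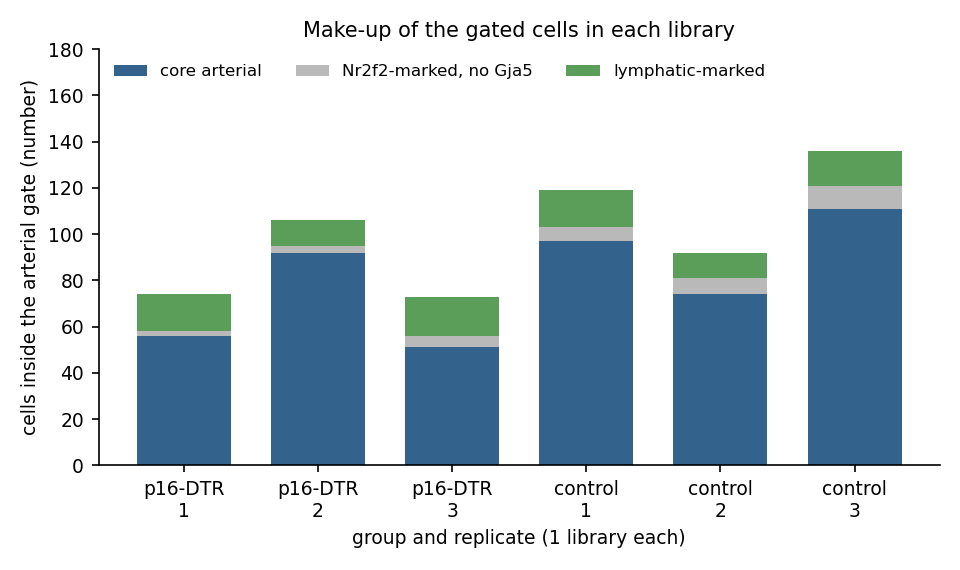
Number of gated cells per library (vertical axis) for the 3 p16-DTR and 3 control libraries, stacked by class: core arterial cells, lymphatic-marked cells and Nr2f2-marked cells without Gja5. The 6 libraries held 56, 92, 51, 97, 74 and 111 core cells and 11 to 17 lymphatic-marked cells each.

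The genes used by the gate are described without a test. Bmx was found in 94.33% of the 600 gated cells, Gja5 in 66.83% and Dkk2, a secreted Wnt pathway modulator, in 10.5%. In the core cells these shares were 93.35%, 82.74% and 12.47%. Cells at the edge of the rule were the most mixed: of the 103 cells with a sum of exactly 2 over Gja5, Bmx and Dkk2, 39.81% were lymphatic-marked, against 9.054% of the 497 cells with a sum of 3 or more. Ccl21a, a chemokine gene of lymphatic endothelium, summed to 2005 to 4614 CPM per library in the gated cells and 2.22 to 5.72 CPM in the core cells. The 10 lymphatic markers together still summed to 2187 to 3629 CPM in the core cells, mostly from Lyve1, which averaged 2604 ± 512 CPM (SD, n = 6) there, 2217 CPM in venous cells and 701 CPM in lymphatic cells. Just outside the rule, 170 cells with a sum of 1 had a median of 9534 UMIs, and 37.06% of them were lymphatic-marked. 

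The deposited libraries held 13482 to 17332 barcodes and 254200305 to 344421685 UMIs. The gated cells numbered 74, 106 and 73 in the p16-DTR libraries and 119, 92 and 136 in the control libraries, with summed depths of 1112159 to 2246359 UMIs and median depths of 13928 to 16221.5 UMIs per cell. Any 2 libraries shared 59 to 94 barcode sequences, and no gated cell had a barcode that was also gated in another library. RNA of other cell types was present at low levels: a UMI of Sftpc, the surfactant gene of type 2 epithelium, was found in 61.6% to 81.6% of gated cells. Summed over the 10 listed epithelial markers the level was 139 to 211 CPM, and the groups overlapped. In the gated cells the 10 immune markers summed to 72.1 to 125 CPM in p16-DTR and 51.4 to 92.2 CPM in control libraries, whereas Hba-a2, a haemoglobin gene of red blood cells, was at 0.

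Levels by endothelial type show what core arterial cells carry that venous, general capillary and aerocyte cells of the same lungs do not. The comparison classes held 2028 venous, 13843 general capillary and 2313 aerocyte cells, gated on Slc6a2, Kit and Ednrb with no Gja5, Bmx or Dkk2 UMI. Since counts chose all classes, these levels are a description with no test, each as a mean over the 6 libraries. Olfm2, which encodes a secreted olfactomedin protein, averaged 333 ± 55.6 CPM (SD, n = 6) in core arterial cells and 0.241, 0.461 and 0.151 CPM in venous, general capillary and aerocyte cells. Esr2, the gene of estrogen receptor beta, averaged 249 ± 60.1 CPM (SD, n = 6) in core arterial cells against 0.426, 0.696 and 0.324 CPM in the same order. For both genes every core arterial library lay above every library of the 3 other types.

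Other genes at the top of this ranking encode secreted proteins, regulators and enzymes. Sfrp1, a secreted antagonist of Wnt ligands, averaged 251 ± 53.8 CPM (SD, n = 6) in core cells and at most 1.65 CPM, in venous cells, elsewhere among the 3 types. Mecom, a zinc-finger transcription factor, averaged 1858 ± 104 CPM (SD, n = 6) in core cells and 51.7, 30.9 and 24.6 CPM in venous, general capillary and aerocyte cells. Fbln2, an extracellular matrix glycoprotein of elastic tissue, averaged 321 ± 74.6 CPM (SD, n = 6) in core cells and 76.5 ± 18 CPM (SD, n = 6) in lymphatic cells. The secreted protease gene Htra1 averaged 150.1 ± 32.4 CPM (SD, n = 6), and Nmnat2, an enzyme of NAD synthesis, averaged 92 ± 46.7 CPM (SD, n = 6). For these 5 genes the lowest of the 6 core libraries lay above the highest library of the 3 other types.

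Not every gene of the ranking was restricted to arterial cells once lymphatic endothelium was considered. Atp13a3, a polyamine-transporting ATPase, averaged 929.5 ± 138 CPM (SD, n = 6) in core arterial cells, 324 CPM in lymphatic cells and 11.6 to 24.1 CPM in the other 3 types. Efna5, a membrane-bound ephrin ligand, averaged 367 ± 86 CPM (SD, n = 6) in core arterial cells and 391 CPM in lymphatic cells. Hs3st4, a heparan sulfate sulfotransferase, was uneven between libraries, at 60.1 ± 49.2 CPM (SD, n = 6) in core cells. The remaining genes of the 20 with the largest ratio were Ppp2r2c, Mannr, Atp2b2, 1010001N08Rik, Enpp6, Fads3, Ifi207, Eps8l2, Slc45a4 and Fblim1, with core means of 51.7 to 146 CPM.

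**Figure D2:**
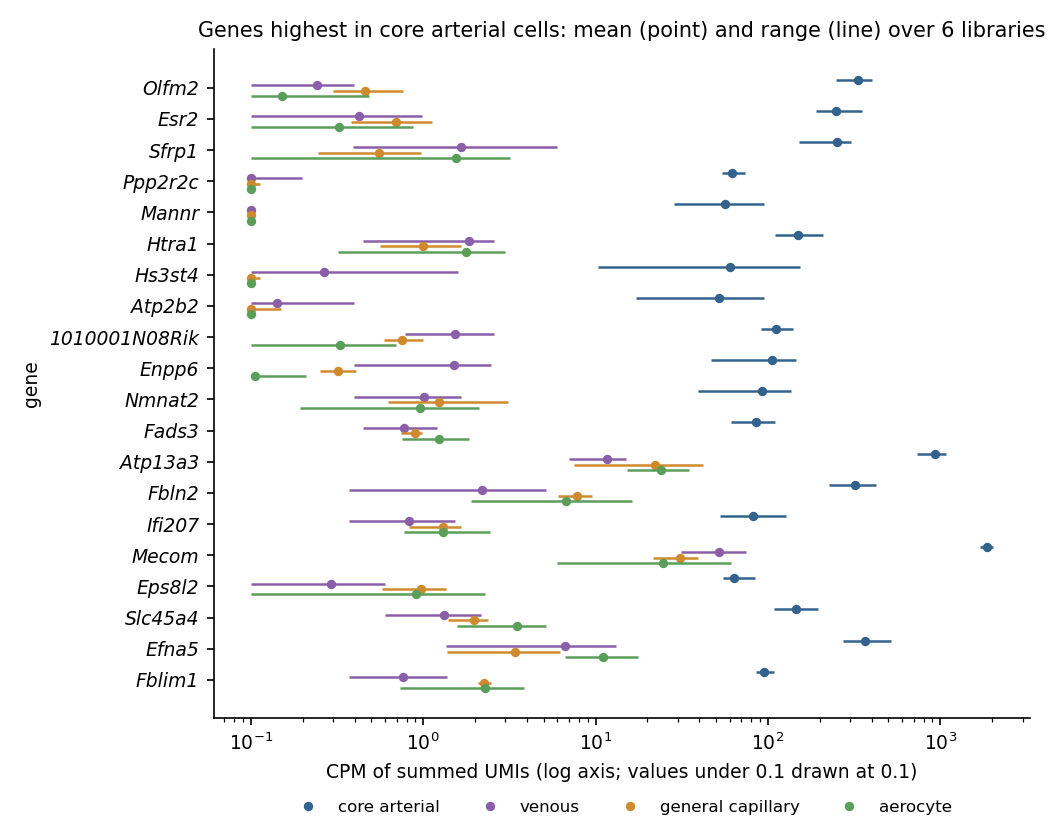
CPM of summed UMIs (horizontal log axis) of the genes with the largest ratio of core arterial cells over the highest of venous, general capillary and aerocyte cells; points are means and lines the range over 6 libraries. Olfm2 and Esr2 stood at 333 and 249 CPM in core arterial cells and below 1 CPM in the 3 other types.

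Genes of arterial identity did not all peak in the arterial cells. Mgp, an inhibitor of vessel wall calcification, averaged 2964 ± 591 CPM (SD, n = 6) in core cells and 115, 52.2 and 66.3 CPM in venous, general capillary and aerocyte cells. Hey2, a Notch target, averaged 44 ± 10.8 CPM (SD, n = 6) in core cells and at most 2.01 CPM in these 3 types. Sox17, one of the 5 markers given for these cells, averaged 127 ± 24.2 CPM (SD, n = 6) in core cells but 338 ± 40.4 CPM (SD, n = 6) in general capillary cells. Every general capillary library (301 to 416 CPM) lay above every core library (98.5 to 160 CPM) for this gene.

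Hey1 and the chemokine gene Cxcl12 were also high in general capillary cells. Hey1 averaged 169 ± 37.9 CPM (SD, n = 6) in core cells and 134 ± 28.2 CPM (SD, n = 6) in general capillary cells, and 31.8 and 3.6 CPM in venous and aerocyte cells. The spreads of core and general capillary cells overlapped, and their difference was not tested. Cxcl12 averaged 1216 ± 311 CPM (SD, n = 6) in core cells and 526 CPM in general capillary cells. By their means core arterial cells came first for Cxcl12, first for Hey1 with a spread that overlapped that of general capillary cells, and second for Sox17. The general capillary gate takes in all Kit-positive cells, and no arterial-side part of the capillary bed was separated from it. Vwf, the von Willebrand factor gene, averaged 2382 ± 342 CPM (SD, n = 6) in core cells and 3412 CPM in venous cells.

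Core arterial cells varied among themselves along the same genes. To compare cells at one depth, each was thinned to 5000 UMIs, which left 448 core cells and removed 33 shallower ones, and the share of cells with a UMI of each gene was read in cells with and without a Dkk2 UMI. The genes of this comparison were chosen after the data were seen, so the shares are a description with no test. Dkk2 is itself a gate gene, and only 6.52% to 15.9% of the thinned core cells of a library carried it, so each library added few cells. Among the 49 Dkk2-positive cells, Mgp was found in 100%, against 65.4% of the 399 cells without Dkk2. Cdh13, the gene of T-cadherin, was found in 100% against 51.1%. Sfrp1 was found in 65.3% against 17.5%. Eln and Fbln5, which encode elastin and an organiser of elastic fibres, the secreted proteins Cytl1, Clu and Vegfc, and the Notch ligand Jag1 were also more often found in Dkk2-positive cells.

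Other genes, picked in the same way, were found less often with Dkk2. Plvap, the protein of endothelial fenestral and caveolar diaphragms, was found in 28.6% of Dkk2-positive and 77.2% of Dkk2-negative core cells. The fatty acid carrier gene Cd36 was found in 14.3% against 67.4%, and Gpihbp1, which anchors lipoprotein lipase in capillaries, in 4.08% against 45.9%. Hey1 was found in 16.3% against 48.1%, while Hey2, of the same family, was found in 38.8% against 12.3%. Cxcl12 was found in 28.6% against 74.2%. Sox17 (42.9% against 41.1%), Gja4 (55.1% against 55.9%) and Vwf (95.9% against 93.7%) were found about as often in both classes.

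The same 448 cells can also be described by Gpihbp1, chosen after its shares in the Dkk2 split were seen, so the values that follow are the same contrast from its other side and no separate evidence. Cd36 was found in 96.2% of the 185 Gpihbp1-positive and 37.3% of the 263 Gpihbp1-negative cells. Lpl, lipoprotein lipase itself, was found in 62.2% against 12.2%, and Cxcl12 in 93.5% against 52.1%. Mgp was found in 35.1% against 93.2%, and Dkk2 in 1.08% against 17.9%. Dkk2 and Gpihbp1 thus rarely stood in the same core cell at this depth, while Gja4 was found in 56.8% and 55.1%. In droplet data free RNA can add UMIs of abundant genes to any cell, and its part in these shares was not tested.

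**Figure D3:**
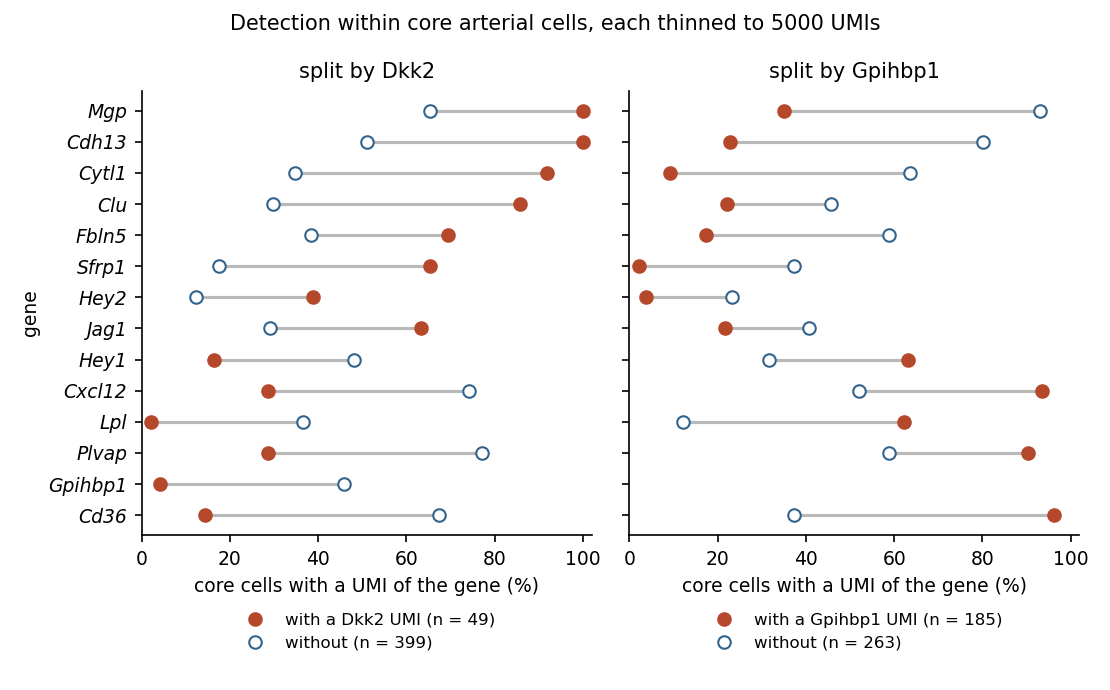
Share of core arterial cells with a UMI of each gene (horizontal axis, %) after thinning to 5000 UMIs, for cells with and without a Dkk2 UMI (49 and 399 cells) and with and without a Gpihbp1 UMI (185 and 263 cells). Mgp, Cdh13 and Sfrp1 were found more often with Dkk2 and less often with Gpihbp1, and Cd36, Plvap and Cxcl12 the other way round.

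The targeted gene was nearly undetected in arterial cells of both groups. After thinning to 5000 UMIs, Cdkn2a was found in 2 of 70 gated cells of p16-DTR 1 and in none of 96, 65, 114, 87 and 130 cells of p16-DTR 2, p16-DTR 3 and control 1 to 3. The share of 2.86% in p16-DTR 1 has an exact 95% binomial interval of 0.348% to 9.94%, for counting error only. Taking 3 cells of the total as the limit that a count of 0 allows, the zeros leave room for cells with a UMI at up to 3.12%, 4.62%, 2.63%, 3.45% and 2.31%. The mean share was 0.952% ± 1.65 (SD, n = 3) in p16-DTR and 0% in control libraries (exact two-sided permutation test, p = 1), and it was 0% without p16-DTR 1. The core cells were thinned in a random draw of their own, so a UMI kept in one draw can be lost in the other. In that draw the counts were 0 of 53, 1 of 83 and 0 of 46 cells in p16-DTR 1 to 3 and 0 in control, a mean of 0.402% ± 0.696 (SD, n = 3) that rested on p16-DTR 2 (exact permutation test, p = 1). Without thinning, 2, 1 and 1 cells (2.70%, 0.943% and 1.37%) of the p16-DTR libraries and no cell of the control libraries had a Cdkn2a UMI (exact permutation test, p = 0.1). Of these 4 cells 1, in p16-DTR 2, was a core cell, and the other 3 were lymphatic-marked or Nr2f2-marked. Neutrophils (Ptprc-positive cells with at least 10 UMIs of S100a8 and S100a9 and no Cdh5), taken as the comparison class, showed a Cdkn2a UMI in 0.664%, 1.18% and 1.61% of thinned cells of the p16-DTR libraries and in 0% of control libraries, at median depths of 9135 to 11710 UMIs. Without thinning their shares were 3.04%, 3.69% and 5.90% in p16-DTR and 0.107%, 0% and 0.426% in control, above the unthinned arterial share in each p16-DTR library. The thinned arterial shares above 0, of 2 gated cells in p16-DTR 1 in one draw and 1 core cell in p16-DTR 2 in the other, had intervals that include the neutrophil share of the same library, so they could not be told from it. With no Cdkn2a UMI in control arterial cells, a loss of Cdkn2a-positive cells in p16-DTR lungs was not detectable at this depth.

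The reporter was as sparse. The tdTomato entry of the reference had 0, 1 and 1 UMIs in gated cells of the p16-DTR libraries and 0 in those of the control libraries. Related genes were more abundant. Cdkn1a, the p21 cell cycle inhibitor, was at 426, 252 and 498 CPM in the p16-DTR libraries and 257, 346 and 382 CPM in the control libraries, and the groups overlapped (log2 fold change of 0.24 ± 0.23, edgeR adjusted p = 0.80). Hbegf, which encodes the mouse form of the protein that diphtheria toxin binds in human cells, was at 31.5, 40.1 and 27.5 CPM in the p16-DTR libraries and 53.8, 58.4 and 104 CPM in the control libraries. Its groups did not overlap, but it did not pass the test (log2 fold change of −1.13 ± 0.27, edgeR adjusted p = 0.29; core cells −0.98 ± 0.23, adjusted p = 0.31).

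Arterial cells made up a smaller share of the endothelium in p16-DTR libraries on average, and whether the groups overlapped depended on the gate and the denominator. The share was 1.68%, 2.29% and 1.49% in the p16-DTR libraries and 3.16%, 2.05% and 2.91% in the control libraries. The groups overlapped, because p16-DTR 2 lay above control 2. The means were 1.82% ± 0.420 (SD, n = 3) and 2.71% ± 0.581 (SD, n = 3), a difference of −0.888 percentage points (exact two-sided permutation test, p = 0.2). When endothelial cells of at least 5000 UMIs were thinned to 5000 UMIs before gating, the groups no longer overlapped. The shares were then 1.83%, 2.44% and 1.63% in p16-DTR 1 to 3 and 3.38%, 2.99% and 3.12% in control 1 to 3. Control 2 moved most, from 2.05% to 2.99%. Thinning also lowers the counts by which the gate excludes cells, and the effect of this was not tested. The means were 1.97% ± 0.422 (SD, n = 3) and 3.16% ± 0.200 (SD, n = 3), with p = 0.1 by the same exact test, the smallest value it can give. As a share of all barcodes past the quality limits, whose makeup the mixing ratio set, arterial cells were 0.517%, 0.720% and 0.488% in p16-DTR 1 to 3 and 0.724%, 0.726% and 0.877% in control 1 to 3. These groups did not overlap either, at 0.575% ± 0.127 (SD, n = 3) and 0.776% ± 0.0875 (SD, n = 3), again with p = 0.1 by the exact permutation test, although p16-DTR 2 lay close below control 1. Core arterial cells made up 1.43% ± 0.495 (SD, n = 3) and 2.20% ± 0.487 (SD, n = 3) of the endothelium (exact permutation test, p = 0.2).

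Gene expression of the gated arterial cells was then compared between the groups on UMIs summed per library. Of 10131 genes tested with edgeR's quasi-likelihood test, 5 were lower in p16-DTR at an adjusted p under 0.05 (0.0494%) and 0 were higher. This one-sided balance was not shared by every setting: DESeq2 called 43 genes lower and 15 higher, the 5 among them, and edgeR without a low-count filter called 135 lower and 165 higher. The 5 were Rlim, Egr1, Birc3, Ppp1r15a and Junb. An unadjusted p under 0.05 was reached by 922 genes (9.1%), and the groups did not overlap for 1495 genes (14.8%), 769 lower and 726 higher. In the core cells 9462 genes were tested and 4 were lower (0.0423%): Rlim, Sbno2, Ppp1r15a and Egr1. The groups did not overlap for 1316 of the core genes (13.9%). Since 1 RNA sum is compared per library, fewer cells with a transcript and fewer transcripts per cell cannot be told apart from the sums alone, and the shares of cells with a UMI, without thinning, are given beside them.

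Egr1 and Junb are immediate early genes, whose transcription factors are induced within minutes of growth factors, shear or stress. Egr1 (chromosome 18, 34859823 to 34864984, plus strand) was at 736, 708 and 689.7 CPM in the p16-DTR libraries and 1493, 1269.6 and 1753 CPM in the control libraries. Every p16-DTR library was below every control library, with means of 711 ± 23.02 and 1505 ± 242 CPM (n = 3 each, SD), a log2 fold change of −1.09 ± 0.12 (SE; edgeR adjusted p = 0.0209; core cells 0.0488). Without thinning, at similar median depths, Egr1 UMIs were found in 63.5% to 66.0% of cells per library in p16-DTR and 83.7% to 89.1% in control. Junb (chromosome 8, 84974484 to 84978718, minus strand), a subunit of AP-1, was at 897, 826 and 892 CPM in the p16-DTR libraries and 1401, 1354 and 1609.7 CPM in the control libraries. The groups did not overlap, and the means were 872 ± 39.7 and 1455 ± 136 CPM (SD, n = 3 each). The log2 fold change of −0.75 ± 0.10 passed the test in the gated cells (edgeR adjusted p = 0.0451). In the core cells it was −0.83 ± 0.14 and did not pass (edgeR adjusted p = 0.0933). Junb UMIs were in 84.9% to 86.5% of cells per library in p16-DTR and 91.6% to 93.5% in control.

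Ppp1r15a encodes GADD34, which directs protein phosphatase 1 to the translation factor eIF2 alpha and so ends the integrated stress response. Ppp1r15a (chromosome 7, 45522916 to 45526268, minus strand) was at 227, 231 and 275 CPM in the p16-DTR libraries and 420.2, 422 and 474 CPM in the control libraries. The groups did not overlap, with means of 244 ± 26.5 and 439 ± 30.7 CPM (n = 3 each, SD), a log2 fold change of −0.86 ± 0.11 (SE; edgeR adjusted p = 0.0451; core cells 0.0338). The gene was found in 73.0% to 78.1% of cells per library in p16-DTR and in 83.2% to 89.0% in control.

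Rlim and Birc3 both encode RING-type ubiquitin ligases. Rlim (chromosome X, 103957163 to 103981284, minus strand) acts on LIM domain cofactors and Rex1, and was at 158, 136 and 153 CPM in the p16-DTR libraries and 293, 279 and 304 CPM in the control libraries. Its means were 149 ± 11.5 and 292 ± 12.7 CPM (SD, n = 3 each), with no overlap and a log2 fold change of −0.98 ± 0.11 (SE; edgeR adjusted p = 0.0209; core cells 0.0331). Rlim UMIs were in 65.8% to 74.3% of cells per library in p16-DTR and 82.4% to 89.0% in control. Birc3 (chromosome 9, 7848699 to 7873186, minus strand), also named cIAP2, is an inhibitor of cell death and a target of NF-kB, and was at 83.6, 74.2 and 70.3 CPM in the p16-DTR libraries and 158, 175 and 144 CPM in the control libraries. The groups did not overlap, at 76.0 ± 6.83 and 159 ± 15.5 CPM (SD, n = 3 each). The log2 fold change of −1.07 ± 0.13 passed the test in the gated cells (edgeR adjusted p = 0.0367). In the core cells it was −1.13 ± 0.16 and did not pass (edgeR adjusted p = 0.0566). Birc3 UMIs were in 49.3% to 50.9% of cells per library in p16-DTR and 53.8% to 62.0% in control.

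These calls depended on having all 6 libraries. With 1 library left out at a time, Egr1 passed in 2 of 6 fits, Rlim and Birc3 in 1 of 6, and Ppp1r15a and Junb in 0 of 6, although each kept its direction in all 6. The highest adjusted p in these edgeR fits was 0.161 for Rlim, 0.163 for Egr1 and Birc3, and 0.172 for Ppp1r15a and Junb. Calls over all genes were 14 without p16-DTR 1 (7 lower and 7 higher), 1 without control 2, and 0 without any of p16-DTR 2, p16-DTR 3, control 1 and control 3.

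**Figure D4:**
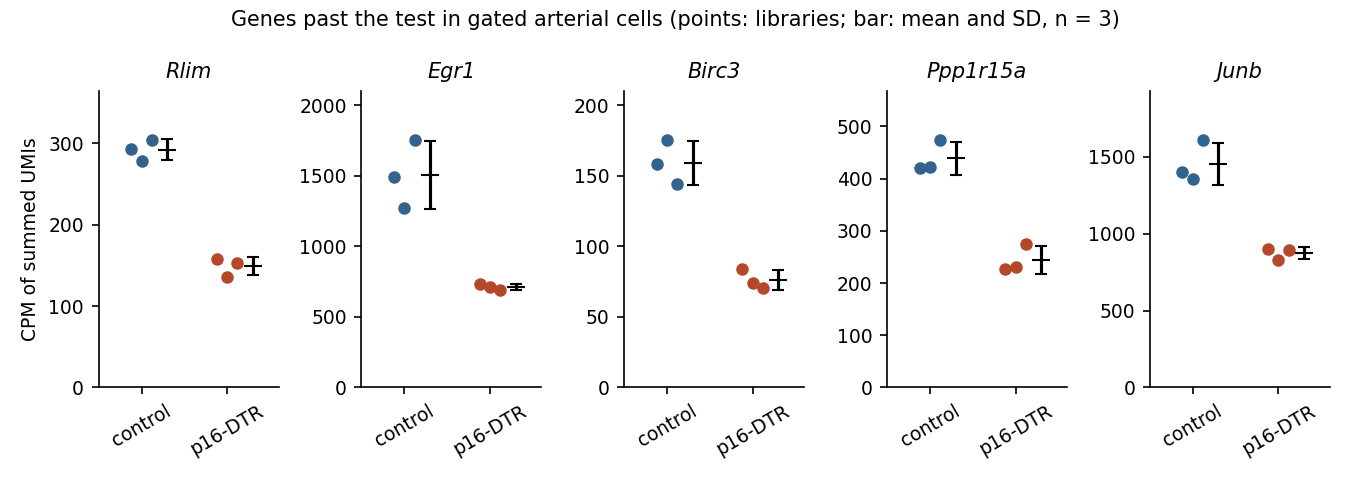
CPM of summed UMIs (vertical axis, starting at 0) of the 5 genes that passed the test in gated arterial cells, with 1 point per library and the mean and SD of 3 libraries per group. For all 5 genes each p16-DTR library lies below each control library.

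Upstream sequence is shown for Ppp1r15a and Junb, since both fell and both hold the core of a cyclic AMP response element (CRE). The bases end 1 base before the annotated transcript start of RefSeq (build GRCm38.p6), read 5′ to 3′ on the gene's own strand, and capitals mark the motif. The Ppp1r15a stretch is chr7:45526269-45526329 on the minus strand, shortened to 61 bases because an exon of a neighbouring gene lies further upstream, and its TGACGTCA starts 12 bases before the transcript start. The Junb stretch is chr8:84978749-84978998 on the minus strand, 250 bases, and its TGACG starts 106 bases before the transcript start.
Ppp1r15a: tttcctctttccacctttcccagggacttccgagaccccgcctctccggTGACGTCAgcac
Junb: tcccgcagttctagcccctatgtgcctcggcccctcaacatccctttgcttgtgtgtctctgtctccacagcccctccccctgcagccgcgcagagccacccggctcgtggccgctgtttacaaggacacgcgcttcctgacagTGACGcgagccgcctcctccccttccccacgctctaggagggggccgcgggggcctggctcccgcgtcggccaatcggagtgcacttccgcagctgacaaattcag
The 8-base palindrome TGACGTCA, which contains TGACG, was found on either strand in the 250 bases upstream of 508 of 32851 promoters (1.55%), and TGACG in 5836 (17.8%). Motifs searched besides these were the CArG box (1.47% of promoters), the AP-1 site TGANTCA (6.75%) and the kappa B site (7.25%). Egr1 was not searched. Rlim and Birc3 held none of the motifs searched in this window, which says only that these letters are not there. A match is a description of sequence and not evidence of binding.

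The same genes had lower values in the venous and general capillary cells of these libraries. These sums come from the same 6 lungs, so they are not separate support. Egr1 had a log2 fold change of −1.11 in venous and −1.32 in general capillary cells, against −1.09 in the gated arterial cells. Rlim stood at −0.63 and −0.64, Birc3 at −0.78 and −0.48, Ppp1r15a at −0.84 and −0.65, and Junb at −0.61 and −0.68, in venous and general capillary cells in that order. The difference between the arterial response and either other response did not pass the test for any of the 5 (edgeR interaction test, lowest adjusted p = 0.495). On simulated counts the arterial against venous test recovered 2% of 2-fold changes, so this does not show that the responses were the same.

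The next genes in order of p that separated the groups did not pass the test in the gated cells. Vcam1, an adhesion molecule for leukocytes, was at 419, 340.5 and 347 CPM in the p16-DTR libraries and 575, 645 and 655 CPM in the control libraries (log2 fold change of −0.77 ± 0.11, edgeR adjusted p = 0.0669). In the core cells its log2 fold change was −0.61 ± 0.15 (edgeR adjusted p = 0.315). Irf1, a transcription factor of the interferon response, was at 168, 155 and 199 CPM in the p16-DTR libraries and 319, 267 and 336 CPM in the control libraries (log2 fold change of −0.83 ± 0.13, edgeR adjusted p = 0.0766; core cells 0.0677). Sbno2, a transcriptional coregulator of inflammatory signalling, was at 149, 158 and 202 CPM in the p16-DTR libraries and 321, 252 and 301 CPM in the control libraries, with an edgeR adjusted p of 0.124 in the gated cells and 0.0338 in the core cells. All 3 genes had higher values in every control library than in any p16-DTR library.

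Most of the remaining genes named by this order were also lower in p16-DTR. Kdm6b, a histone H3K27 demethylase, had a log2 fold change of −0.68 ± 0.11 (by edgeR, adjusted p = 0.0899). Tra2b, a splicing regulator, had a log2 fold change of −0.73 ± 0.11 (adjusted p = 0.0742), and Alms1, a centrosome and basal body protein, a log2 fold change of −1.39 ± 0.21 (adjusted p = 0.0742). The lincRNA 4930403P22Rik (−2.14), the Golgi GTPase gene Arf4 (−0.67), Zfp704 (−0.60), Cx3cr1 (−0.84), Btg2 (−0.62) and Nfkbiz (−0.77) completed those with lower values. Those with higher values were Serpinh1, the collagen chaperone HSP47 (log2 fold change of 0.87 ± 0.15, adjusted p = 0.101), Jdp2, a repressor of AP-1 (log2 fold change of 1.08 ± 0.19, adjusted p = 0.112), and Shroom2, an actin-binding protein (log2 fold change of 0.71 ± 0.13, adjusted p = 0.124).

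Immediate early genes as a list were mostly lower in p16-DTR. Of 23 listed genes 21 were tested, and 2, Egr1 and Junb, were called lower (over all genes, 0.0494%). The estimate was lower for 20 of the 21, against 49.7% of all genes, and the groups did not overlap for 11, all lower, against 7.59% of all genes. The median log2 fold change was −0.43, and it was 0.00 over all 10131 genes. In the core cells the median was −0.39, 20 of 21 estimates were lower (49.6% of all genes) and 7 did not overlap, all lower (7.73% of all genes). Summed over the list, the level was 11476 to 13035 CPM in p16-DTR and 14764 to 18925 CPM in control libraries, which did not overlap. Other endothelial classes of the same lungs shared this, so it was not particular to arterial cells. The p16-DTR sums were lower without overlap in venous (13232 to 14922 against 17939 to 19655 CPM) and general capillary cells (9759 to 10757 against 12183 to 15831 CPM). The same held in lymphatic cells (13221 to 15538 against 16018 to 21343 CPM), while aerocytes overlapped.

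The most abundant members showed different sizes. Jun, the partner of Fos in AP-1, was at 1574, 1478 and 1586 CPM in the p16-DTR libraries and 1889, 2013 and 2614 CPM in the control libraries (log2 fold change of −0.50 ± 0.13, edgeR adjusted p = 0.29). Its groups did not overlap. Fos had a log2 fold change of −0.36 ± 0.15 (adjusted p = 0.53) and Klf2, a transcription factor induced by laminar flow, a log2 fold change of −0.15 ± 0.11 (adjusted p = 0.72). Klf4, its relative, was the only tested member with a higher estimate, 0.16 ± 0.17. As background, these genes also respond to the enzymatic digestion by which lung cells are freed. The labels give 1 digestion protocol for all 6 lungs and do not say whether lungs shared a day. The part of digestion in these differences was not tested. Of the 19 list members with a promoter entry, TGACG was found upstream of 12 (17.8% of all promoters), the kappa B site of 5 (7.25%), TGACGTCA and the CArG box of 2 each (1.55% and 1.47%) and TGANTCA of 0 (6.75%), counts that are a description with no test.

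**Figure D5:**
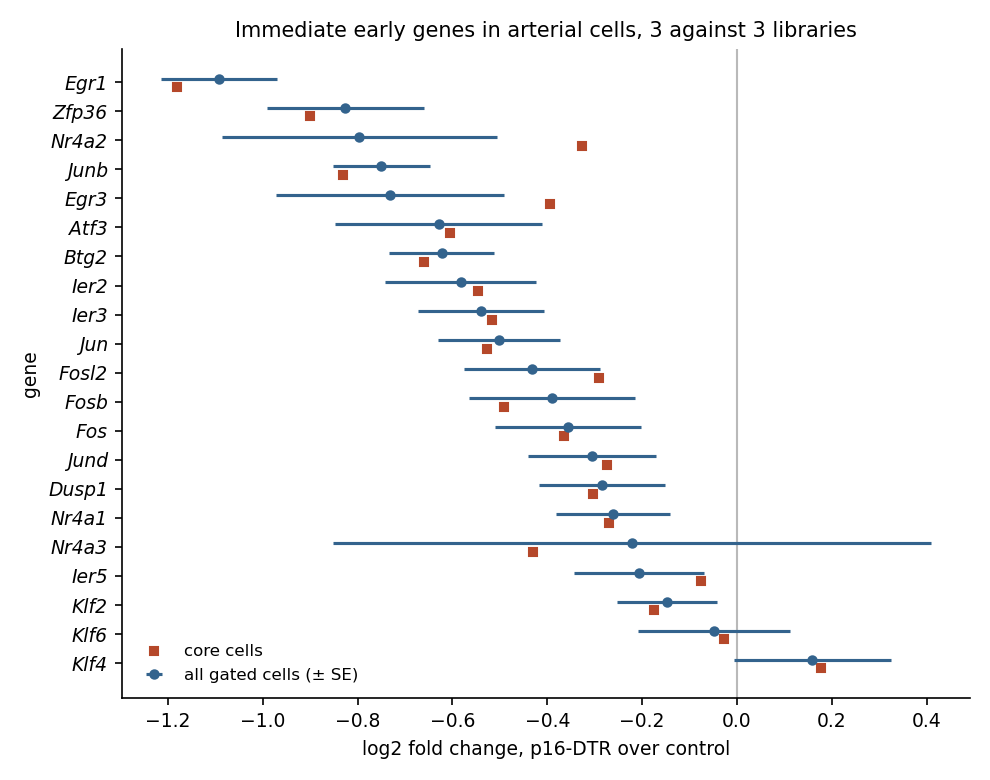
Log2 fold change of p16-DTR over control (horizontal axis) of the tested immediate early genes in arterial cells, 3 against 3 libraries, for the gated cells (points with ± SE bars) and the core cells (squares). In the gated cells 20 of 21 points lie below 0, with Egr1 and Junb among the lowest.

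Heat shock chaperones went mostly the other way, without a call. Of 16 tested members 12 had higher estimates in p16-DTR, against 50.3% of all genes, and 4 did not overlap, all higher, against 7.17% of all genes. The median log2 fold change was 0.26 in the gated and 0.31 in the core cells, where 5 higher and 1 lower did not overlap (6.18% and 7.73% of all core genes). Hsp90ab1, a constitutive cytosolic chaperone, was at 1235, 1424 and 1236 CPM in the p16-DTR libraries and 970.4, 956 and 1031 CPM in the control libraries (log2 fold change of 0.39 ± 0.10, edgeR adjusted p = 0.30). Hsp90b1 and Hspa5, both of the endoplasmic reticulum, had log2 fold changes of 0.27 and 0.24, and Hspa8 0.29. The summed list stood at 5032 to 6276 CPM in p16-DTR and 4339 to 4729 CPM in control libraries. It was also higher without overlap in venous cells (4258 to 5705 against 3911 to 4114 CPM), aerocytes and lymphatic cells. General capillary cells overlapped (3588 to 5027 against 3342 to 3648 CPM).

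Lists of arterial function showed no called gene. Among 30 arterial identity genes 18 had higher estimates (50.3% of all genes), 4 did not overlap, all lower (7.59% of all genes), and the median was 0.07. Core cells had 17 higher estimates, 3 lower and 1 higher did not overlap (7.73% and 6.18% of all core genes), and the median was 0.11. Mgp (0.06 ± 0.16), Cxcl12 (0.19 ± 0.19), Sulf1 (−0.20 ± 0.14) and Tm4sf1 (−0.35 ± 0.09), its most abundant members, all had edgeR adjusted p values of 0.32 or more. The Notch pathway, with 24 of 27 genes tested, had a median of 0.02 and 15 higher estimates (core cells 0.01 and 12); its receptor Notch1 stood at 0.13 ± 0.10, the coactivator Maml2 at −0.04 ± 0.13, the inhibitor Numb at 0.15 ± 0.11 and the protease Adam10 at 0.21 ± 0.11 (adjusted p 0.61 or more).

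Genes of vessel tone, flow, junctions and wall matrix had no called member. The 25 tested vascular tone genes had a median of 0.01 (core cells 0.02), and Calcrl, the receptor for adrenomedullin and CGRP, stood at 0.19 ± 0.11. Endothelin 1 (Edn1) was at 654, 619 and 642 CPM in the p16-DTR libraries and 938, 763 and 758 CPM in the control libraries (log2 fold change of −0.37 ± 0.11, edgeR adjusted p = 0.34). Shear stress genes (15 tested) had a median of 0.04, junction genes (12 tested) −0.08 and elastic fibre and wall matrix genes (32 tested) 0.15, and in the core cells these medians were 0.06, −0.04 and 0.09. Of the junction genes 9 of 12 had lower estimates (49.7% of all genes). Only 1 lower and 0 higher did not overlap (7.59% and 7.17% of all genes). In the core cells 7 of 11 had lower estimates (49.6% of all core genes), and all 11 overlapped. Sums over the 15 listed junction genes were 4711 to 4943 CPM in p16-DTR and 5007 to 5144 CPM in control libraries, without overlap. How often sums of lists separate the groups by chance was not tested. Of the wall matrix genes 23 of 32 had higher estimates (50.3% of all genes). Eln was at 887, 1499 and 733 CPM in the p16-DTR libraries and 874, 823 and 668 CPM in the control libraries (log2 fold change of 0.40 ± 0.23, adjusted p = 0.66), and its groups overlapped. An adjusted p above the threshold does not show that these genes were the same in both groups.

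Immune presentation genes and small regulatory lists had no called member either. All 7 tested MHC class II genes had lower estimates (49.7% of all genes), with a median of −0.45, and 2 did not overlap (7.59% of all genes). Core cells had 5 tested, all lower; 2 did not overlap (7.73% of all core genes), and the median was −0.58. Cd74, the invariant chain, had a log2 fold change of −0.73 ± 0.23 (by edgeR, adjusted p = 0.39). Summed immune markers overlapped between the groups. MHC class I genes (16 tested) had a median of 0.03 in the gated and 0.11 in the core cells. Of 26 interferon response genes 18 had lower estimates, and 5 lower and 1 higher did not overlap (7.59% and 7.17% of all genes), with a median of −0.12. Among core cells 12 of 25 were lower, 4 lower and 3 higher did not overlap (7.73% and 6.18% of all core genes), and the median was 0.02. All 4 cold-inducible RNA-binding protein genes had lower estimates, 3 without overlap in the gated (7.59% of all genes) and 2 in the core cells (7.73%), and Cirbp had a log2 fold change of −0.92 ± 0.23 (adjusted p = 0.29). Their sum was also lower without overlap in venous, general capillary, aerocyte and lymphatic cells of the same lungs. In general capillary cells it was 832 to 914 CPM in p16-DTR and 1023 to 1067 CPM in control libraries.

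Senescence-related lists were measured because the design targets p16-expressing cells. The 17 tested p53 targets had a median of −0.09 (core cells −0.08), 3 did not overlap, all lower (7.59% of all genes), and the sums were 1547 to 1915 CPM in p16-DTR and 1985 to 2183 CPM in control libraries. The 8 tested cell cycle inhibitors had a median of −0.04 (core cells −0.06). The 23 tested genes of the senescence secretome had a median of 0.19, with 15 higher estimates (50.3% of all genes) and 3 higher and 1 lower without overlap (7.17% and 7.59% of all genes). The core median was 0.02, where 10 of 20 were higher and 1 higher and 2 lower did not overlap (6.18% and 7.73% of all core genes). Plat, tissue plasminogen activator, had a log2 fold change of −0.59 ± 0.17 (by edgeR, adjusted p = 0.34), and Igfbp5, an IGF-binding protein, a log2 fold change of 1.51 ± 0.41 (adjusted p = 0.31). No member of these 3 lists passed the test.

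Markers of vessel wall cells were uneven between the groups inside the arterial gate. The 10 smooth muscle and pericyte markers summed to 147 to 347 CPM in p16-DTR and 104 to 118 CPM in control libraries, without overlap, and the 3 tested had a median log2 fold change of 1.32 (2 in the core cells, 1.17). Acta2, smooth muscle actin, was at 71, 89.4 and 174 CPM in the p16-DTR libraries and 45.8, 23.2 and 60.5 CPM in the control libraries (log2 fold change of 1.32 ± 0.36, edgeR adjusted p = 0.32). Acta2 UMIs were found in 11.96% to 18.9% of cells per library, with up to 86 UMIs in a single cell, so the sums rest on few cells. Their part in the differences between the groups was not tested.

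For a few genes the arterial response differed from that of the neighbouring endothelium. An edgeR interaction test with the library as a block called 4 of 12070 genes against venous cells (0.0331%) and 4 of 14777 against general capillary cells (0.0271%). Nr4a1, an orphan nuclear receptor among the immediate early genes, was at 127, 120.4 and 133 CPM in p16-DTR and 137, 149 and 165 CPM in control arterial cells. In venous cells it was at 82.7, 90.6 and 65.3 CPM in p16-DTR and 212, 207 and 225 CPM in control. The groups did not overlap in either class, but the log2 fold change was −0.26 ± 0.12 in arterial and −1.42 ± 0.11 in venous cells, a difference of 1.17 ± 0.16 (SE; edgeR adjusted p = 0.0464; core cells 0.0505). The call held in 3 of 6 fits with a library left out and was lost with equal cell numbers per library (adjusted p = 0.339).

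Against general capillary cells, Atp13a3 and Tmem252 differed. Atp13a3 was at 899, 910.1 and 776 CPM in p16-DTR and 602, 833 and 689 CPM in control arterial cells, and at 27.0, 32.6 and 41.8 CPM against 11.2, 12.2 and 7.45 CPM in general capillary cells. Its groups overlapped in arterial cells and did not in general capillary cells, with log2 fold changes of 0.27 ± 0.13 and 1.75 ± 0.21 and a difference of −1.49 ± 0.21 (SE; edgeR adjusted p = 0.0305; core cells 0.0277), and the call held in 5 of 6 fits with a library left out. With equal cell numbers the Atp13a3 difference was −3.61 and did not pass the test (adjusted p = 0.204). Tmem252, a membrane protein gene, had log2 fold changes of −0.51 ± 0.31 in arterial and 0.94 ± 0.26 in general capillary cells, a difference of −1.45 ± 0.15 (SE; edgeR adjusted p = 0.00188). It was called in 6 of 6 such fits, but its adjusted p was 0.0557 with core cells and 0.157 when each library gave the same number of cells.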

How the data were processed

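Droplet libraries (10x GEM-X 3' chemistry) were counted with Cell Ranger 8.0.1 on build mm10, per the submitters' processing notes. The authors deposited raw UMI counts per gene and barcode, without normalization, 1 matrix per library; the annotation release is not given in the sources used here. The matrices held 31054 features, of which 30934 matched a GENCODE M21 identifier (GRCm38), the source of gene positions.

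Barcodes were gated on raw UMIs. Doublets were predicted from simulated doublets per library; 2 gated cells were predicted and kept in the main results. Counts were summed per library over gated cells and tested with edgeR 4.0.16 in R 4.3.3 (quasi-likelihood test, filterByExpr, TMM factors, Benjamini-Hochberg adjustment over all genes at 0.05), with the group alone in the design; gate genes are not counted as results. Each library's arterial sum held 1112159 to 2246359 UMIs. Differences between cell types were tested as an interaction with the library as a block. Shares were tested with exact permutations in scipy 1.17.1. Standard errors came from the F statistic. CPM is the count over the library's summed UMIs.

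On simulated counts for the arterial comparison (10164 and 10186 genes tested), 40.5% of 2-fold and 99.5% of 4-fold changes were recovered. For the arterial against venous response (12062 and 12136 genes) 2% and 90.5% were. Unchanged genes were called 2 and 10 times in the former and 0 and 7 times in the latter. Every simulated gene had the same dispersion, changes were placed only in genes of higher counts, and the cell types were drawn independently. Real counts differ in this, so these rates are not the power of the tests above.

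Named are the called genes, then genes by unadjusted p whose groups do not overlap, up to 20 in all, the targeted genes and markers, and the called and up to 4 most abundant members of a list. For levels by type, the 20 genes with the largest log2 ratio over the highest other type are named. The members, the 31 lists (513 genes, 4 of them not in the matrices) and the tests were chosen with earlier results of these data known, and a few further genes (Edn1, Eln, Plat, Igfbp5, Acta2 and those of the split core cells) after their values were seen. The core class was added after the data were seen. Alternatives were other scalings, DESeq2 1.42.0, no low-count filter, a replicate block, each library left out, other gates and depth limits, and equal cell numbers.

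Replicate numbers are taken from the labels, which do not say whether a number marks a shared litter or day. Promoter sequences are from RefSeq (GRCm38.p6), 250 bases upstream.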

Additional observations from a re-analysis of the deposited data

Results flagged for a closer look

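The results listed here are genes whose response in gated arterial cells differed from that of another endothelial class of the same lungs, by the edgeR interaction test at an adjusted p under 0.05. Against venous cells 4 genes met this. Nr4a1 had a difference of 1.17 ± 0.16 on the log2 scale (adjusted p = 0.0464), from −1.42 ± 0.11 in venous and −0.26 ± 0.12 in arterial cells. F8, coagulation factor VIII, had a difference of −1.53 ± 0.21 (adjusted p = 0.0464): in arterial cells it was at 62.9, 32.2 and 30.03 CPM in p16-DTR and 67.0, 76.7 and 87.7 CPM in control, and in venous cells at 49.3, 24.3 and 25.8 against 20.5, 16.5 and 27.8 CPM. The p16-DTR 1 library lay apart from the other p16-DTR libraries for F8 in both classes, and the call held in 1 of 6 fits with a library left out and not in core cells (adjusted p = 0.275).

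For Nxph1 and Kcnd2 the fitted differences of 16.50 and 10.62 rest on counts at or near 0 and are no measure of size. Nxph1 had 0, 87 and 42 UMIs in p16-DTR arterial cells, in 0, 4 and 1 cells, and 0 in control arterial cells, whereas venous cells had 0 in p16-DTR and 63, 2 and 0 in control. Kcnd2 had 0, 44 and 0 UMIs in p16-DTR arterial cells and 1 in control, against 1, 1 and 0 in p16-DTR and 13, 50 and 80 in control venous cells. Each call held in 2 of 6 fits with a library left out and in neither case in core cells (edgeR adjusted p 0.0623 for Nxph1 and 0.0901 for Kcnd2). With equal cell numbers Nxph1 was still called (edgeR adjusted p = 0.0250) and Kcnd2 had no value.

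Against general capillary cells 4 genes met the same limit. Tmem252 had a difference of −1.45 ± 0.15 (adjusted p = 0.00188) and Atp13a3 of −1.49 ± 0.21 (adjusted p = 0.0305). Lmcd1, a LIM domain transcriptional coregulator, had a difference of −1.08 ± 0.15 (adjusted p = 0.0305), from log2 fold changes of −0.46 ± 0.23 in arterial and 0.58 ± 0.29 in general capillary cells. Zfp704 had a difference of −0.70 ± 0.11 (adjusted p = 0.0484), from −0.60 ± 0.10 in arterial and 0.08 ± 0.06 in general capillary cells; it was called in 3 of 6 fits with a library left out, and Lmcd1 in 5 of 6. In core cells the adjusted p was 0.0522 for Lmcd1 and 0.0924 for Zfp704, and with equal cell numbers it was 0.114 for both, so neither call held there. With equal cell numbers the adjusted p was 0.339 for Nr4a1, 0.363 for F8, 0.157 for Tmem252 and 0.204 for Atp13a3.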

How the results depend on the processing

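The 5 edgeR calls in arterial cells were sensitive to the processing. RLE size factors and a limit of 5% mitochondrial UMIs each gave 5, and leaving out predicted doublets also gave 5, while library size alone gave 3, at least 5000 UMIs per cell 6, DESeq2 58 (15 higher, 43 lower), and no filter on low counts 300 (165 higher, 135 lower). The stricter gate gave 9 calls, the looser gate 2, equal cell numbers 9, core cells 4 and leaving out lymphatic-marked cells 1. Leaving out 1 library gave 0 to 14 calls, and in core cells 0 to 8; core cells with DESeq2 gave 32. With a replicate block 0 genes were called, in gated and in core cells. Correlations of deviations between same-numbered libraries were 0.18, −0.16 and 0.11, and those between differently numbered libraries ran from −0.34 to 0.28. With 3 libraries per group these values cannot show whether a number marks a shared origin. Against venous cells 4 calls became 288 without the filter, 10 with equal cell numbers, 0 in core cells and 0 to 86 with a library left out. Against general capillary cells 168, 2, 1 and 1 to 26 genes were called under the same changes in place of 4, and 1 with RLE size factors; the 2 genes called with equal cell numbers shared 0 with the 4. The Cdkn2a difference of 0.952 percentage points was 0 with the stricter gate and 0 to 1.43 with a library left out; the stricter gate drew its own thinned UMIs, and unthinned it still held 2 Cdkn2a-positive cells in p16-DTR 1 and 1 in p16-DTR 2. The share of endothelium differed by −0.662 to −1.22 percentage points, and the share of all barcodes past the quality limits by −0.201. Over 27 alternatives for 22 named genes, 470 of 594 comparisons kept direction and were not seen to cross the threshold, 76 lost the call, 48 gained one and 0 reversed. Comparisons with no adjusted p, such as 4930403P22Rik with DESeq2, were counted among the 470. All 76 losses were among the 135 comparisons of the 5 called genes. Immediate early genes had 18 to 21 lower members (median −0.55 to −0.26) and heat shock genes 12 to 14 higher ones (0.13 to 0.35). The cause of these changes was not tested.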

Other observations

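Other signalling lists in the arterial cells are given as values, since no member passed the edgeR test. Growth factor genes of the EGF family were sparse, with 7 of 14 tested and a median log2 fold change of 0.48. Nrg1, the ligand neuregulin 1, was at 24.3, 26.8 and 21.4 CPM in the p16-DTR libraries and 5.73, 3.52 and 11.1 CPM in the control libraries (log2 fold change of 1.75 ± 0.37, edgeR adjusted p = 0.19), and Errfi1, a feedback inhibitor of the receptors, had −0.31 ± 0.18. The 25 TGF-beta and BMP genes had a median of 0.03, among them the receptor gene Bmpr2 at 0.03 ± 0.10 and the ligand gene Bmp6 at −0.87 ± 0.23 (adjusted p = 0.31). The 22 VEGF, angiopoietin and apelin genes had a median of −0.10 with 14 lower estimates (49.7% of all genes), and 2 lower and 0 higher did not overlap (7.59% and 7.17% of all genes). Among core cells 16 of 20 were lower, and 5 lower and 1 higher did not overlap (7.73% and 6.18% of all core genes). The 17 Wnt genes had a median of 0.10 and the 17 leukocyte adhesion and chemokine genes 0.06. Core medians were 0.48 for the EGF family, 0.06 for TGF-beta and BMP, −0.13 for VEGF, 0.00 for Wnt and 0.04 for adhesion genes.

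Hormone and clock genes also had no call. Of 16 glucocorticoid-induced genes 10 had higher estimates in p16-DTR (50.3% of all genes), 4 higher and 2 lower did not overlap (7.17% and 7.59% of all genes), and the median was 0.39. The core median was 0.22, and 2 higher and 2 lower did not overlap (6.18% and 7.73% of all core genes). Zbtb16, a glucocorticoid-responsive zinc-finger gene, had a log2 fold change of 0.84 ± 0.41 (by edgeR, adjusted p = 0.59), whereas Sgk1, a kinase induced by the same hormones, had −0.41 ± 0.12. The 16 circadian clock genes had a median of 0.14 (core cells 0.02). Among markers of other vessels, 9 venous genes had a median of −0.17 in the gated and 0.23 in the core cells, 8 general capillary genes −0.03 and 0.04, 5 aerocyte genes 0.40 and 0.35, and the lymphatic genes 0.34 (10 tested) and 0.35 (4 tested). The 6 fibroblast markers tested had a median of 0.06 in the gated and 0.29 in the core cells, and the 4 epithelial markers 0.10 and 0.13.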
